A study of Mus musculus with 36 samples.

Results

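The cells described here were sorted from C57/Bl6 mouse brain tissue into the population titled D, and they are set against the population titled Neg. Of the 36 libraries of the series, the 12 whose titles carry population D (6 libraries) or Neg (6 libraries) were taken: 2 D and 2 Neg libraries from the olfactory bulb, 2 D and 2 Neg libraries from the cortex, and 2 D and 2 Neg libraries from the brainstem. RNA-seq measured total RNA from each, and the labels name no genotype, transgene, drug or age that would separate the groups. The submitters label every library, D and Neg alike, with the cell type astrocyte and the source mouse brain cells, and the series design text speaks of cell lines. The labels do not say which surface antigens define D, nor what Neg means. Whether both libraries of a group derive from different mice is not stated, and the p-values below measure variation among libraries that may be technical only.

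Astrocytes clear glutamate and GABA from synapses, buffer potassium, supply cholesterol and lipoproteins to neighbouring cells, and wrap blood vessels with endfeet. The endothelial cells inside those vessels form the blood-brain barrier through tight junctions and a specific set of transporters. Microglia, oligodendrocytes, neurons and pericytes share the same tissue, and a sort for astrocytes can carry RNA from any of them. In bulk samples such as these, fewer cells of a type and less RNA per cell cannot be told apart.

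Libraries differed in ways that bear on every comparison below. FPKM, the deposited unit, scales the fragments of a transcript by its length and by the mapped fragments of the library, and a gene was counted as detected at 1 FPKM or more. D libraries held 8693 and 8076 detected genes in olfactory bulb, 8257 and 3001 in cortex, and 7706 and 7780 in brainstem. Neg libraries held 7229 and 7465 in olfactory bulb, 6348 and 3700 in cortex, and 2877 and 2105 in brainstem. D averaged 7252 ± 2113 genes and Neg 4954 ± 2342 (SD, n = 6 each), a difference of 2298 genes (two-sided exact permutation within regions, p = 0.0833, where 0.00926 is the smallest p that 216 arrangements allow). Without cortex D replicate 2 the difference was 3148 genes, at that smallest p (exact permutation, p = 0.00926). Coverage per FPKM, a relative measure of depth, was 1.54 to 2.36 in D and 1.37 to 1.69 in Neg, and the authors' 95% intervals for genes at 5 to 20 FPKM had half-widths of 12.8 to 14.6% of the value in D and 15 to 18% in Neg. FPKM summed over nuclear genes came to 41324 to 148661 in D and 24130 to 63081 in Neg, so values as deposited carry a difference of scale between the groups.

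Further differences go with single libraries or with the populations. The library labelled brainstem D replicate 2 had 29.1 FPKM of Omp, the olfactory marker protein gene, and its mean log2(FPKM + 1) over 14 olfactory bulb genes was 3.26, against 1.44 in brainstem D replicate 1. Its gene values correlated most with olfactory bulb C replicate 2 (Pearson correlation of log2(FPKM + 1) across genes 0.759) and at 0.641 with brainstem D replicate 1. It keeps its label here, and results are given with and without it. Xist, expressed from the inactive X chromosome of female mice, was present at 8.99 to 38.0 FPKM in all 6 D libraries, at 27.6 and 29.2 FPKM in olfactory bulb Neg, and at 0 to 0.0135 FPKM in the other 4 Neg libraries. The Y-linked gene Uty was above 0 in 2 D libraries, olfactory bulb replicate 2 at 2.79 FPKM and brainstem replicate 1 at 3.00 FPKM, and in the 4 cortex and brainstem Neg libraries at 1.01 to 5.08 FPKM. In cortex and brainstem the presence of Xist thus went with population, and Xist and population cannot be told apart there. The part of sex in the D minus Neg differences was not tested. All D titles carry numbers of a single series and all Neg titles numbers of another, so that number series and population cannot be told apart here.

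**Figure D1:**
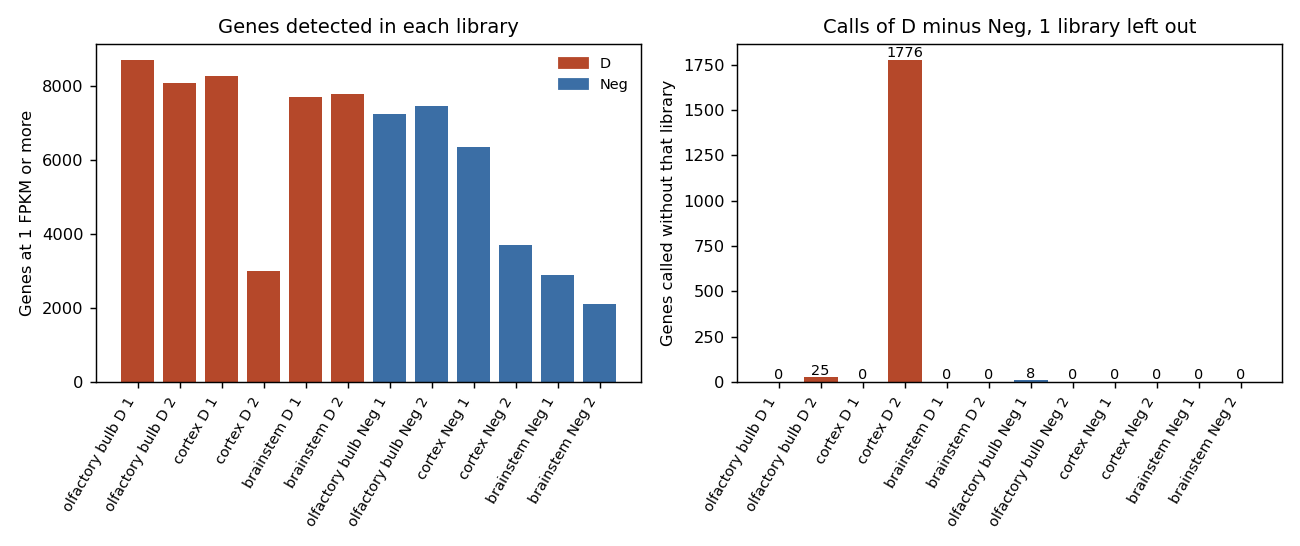
Left, genes at 1 FPKM or more in each of the 6 D libraries (red) and 6 Neg libraries (blue). Right, the number of genes called in D minus Neg when the library named on the axis is left out. Cortex D replicate 2 has 3001 detected genes against 7706 to 8693 in the other D libraries, and leaving it out gives 1776 called genes.

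The first comparison asked which genes differ between D and Neg over the 3 regions. Of 10851 genes at 1 FPKM or more in at least 2 of the 12 libraries, 0 (0%) were called by limma on log2(FPKM + 1) with region as a block at an adjusted p under 0.05, and the smallest adjusted p was 0.0567. At an unadjusted p under 0.05, 2125 genes (19.6%) were higher in D and 29 (0.267%) were lower. The median gene was 0.58 higher in D on the log2 scale. After quantile normalization, which gives every library the same distribution of values, that median was 0.00, 0 genes were called (smallest adjusted p = 0.0814), and 569 genes (5.24%) were higher and 600 (5.53%) lower at an unadjusted p under 0.05. That normalization sets the median near 0 by its construction, and rescaling every library to one sum left it at 0.30 with 0 genes called (limma; 912 genes in D minus Neg at an unadjusted p under 0.05). What follows reads each gene group against the medians of 0.58 and 0.00. Without brainstem D replicate 2, limma called 0 of 10504 genes, with 1581 (15.1%) higher and 32 (0.305%) lower at an unadjusted p under 0.05, and the median gene was 0.50 higher in D.

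The number of calls turned on which libraries were kept. Without cortex D replicate 2, limma called 1772 genes (16.4% of 10796) higher and 4 (0.0371%) lower in D. With all 36 libraries in the fit, which estimates the spread from 18 groups, 538 genes (3.96% of 13580) were called higher and 2 (0.0147%) lower, and 472 genes were called in the same direction by both fits. Calls named below from the 36-library fit use the same D and Neg values, with no quantile normalization.

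Gpr37l1, Slco1a4 and Ly6c1 mark the cell types that the comparison touches first. Gpr37l1, a G protein-coupled receptor gene of astrocytes (chromosome 1, 135160234 to 135167681, GRCm38, minus strand, protein coding), had 29.7 and 6.89 FPKM in olfactory bulb D, 126 and 5.64 in cortex D, and 68 and 37.4 in brainstem D. In Neg it had 1.98 and 5.64 FPKM in olfactory bulb, 5.69 and 0.320 in cortex, and 0.228 and 0 in brainstem. All D libraries but cortex D replicate 2, at 5.64 FPKM, lay above every Neg library. Its D minus Neg difference was 3.55 ± 0.74 (log2 ± SE, limma adjusted p = 0.0812), 2.76 after quantile normalization, and 3.40 without brainstem D replicate 2. The 36-library limma fit called it higher in D (adjusted p = 0.00387).

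Slco1a4, an organic anion transporter of brain endothelium (chromosome 6, 141805440 to 141856199, minus strand, protein coding), had 5.31 and 10.5 FPKM in olfactory bulb D, 3.45 and 2.51 in cortex D, and 15.1 and 17.6 in brainstem D. Neg had 7.36 and 2.92 FPKM in olfactory bulb, 2.81 and 3.76 in cortex, and 3.25 and 4.28 in brainstem. The groups overlapped in olfactory bulb and cortex and were apart in brainstem, where both D libraries were higher. The difference was 0.78 ± 0.53 (log2 ± SE, limma adjusted p = 0.369) as deposited and -0.13 after quantile normalization, so its sign depended on the scale. Ly6c1, a surface protein gene of endothelium and some leukocytes (chromosome 15, 75044018 to 75048830, minus strand, protein coding), had 13.4 and 2.00 FPKM in olfactory bulb D, 14.6 and 42.5 in cortex D, and 23.6 and 28.4 in brainstem D. Neg had 9.35 and 9.45 FPKM in olfactory bulb, 1.43 and 0.687 in cortex, and 1.76 and 1.67 in brainstem. Only olfactory bulb D replicate 2, at 2.00 FPKM, fell inside the Neg values. Its difference was 2.11 ± 0.68 (log2 ± SE, limma adjusted p = 0.143), and the 36-library limma fit called it higher in D (adjusted p = 0.0152). Reads of Ly6c1 can be shared with the near-identical neighbour Ly6c2, so its level is uncertain.

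The promoters of these genes, and of the astrocyte neurotensin receptor gene Ntsr2, are shown because they are the regulatory starts of the astrocyte and endothelial markers compared here. Each runs from 250 bases before to 50 after the RefSeq start (GRCm38.p6) and reads 5′ to 3′ on the gene's strand. They lie at chr1:135167632-135167931 (minus) for Gpr37l1, chr12:16653220-16653519 (plus) for Ntsr2, chr6:141856171-141856470 (minus) for Slco1a4 and chr15:75048788-75049087 (minus) for Ly6c1, the first of 2 starts listed for that gene.
Gpr37l1: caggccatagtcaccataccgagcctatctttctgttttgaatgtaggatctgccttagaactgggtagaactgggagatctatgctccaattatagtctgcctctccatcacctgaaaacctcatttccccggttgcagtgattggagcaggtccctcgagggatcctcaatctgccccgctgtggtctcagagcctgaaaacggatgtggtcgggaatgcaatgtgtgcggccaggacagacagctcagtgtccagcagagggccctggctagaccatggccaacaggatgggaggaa
Ntsr2: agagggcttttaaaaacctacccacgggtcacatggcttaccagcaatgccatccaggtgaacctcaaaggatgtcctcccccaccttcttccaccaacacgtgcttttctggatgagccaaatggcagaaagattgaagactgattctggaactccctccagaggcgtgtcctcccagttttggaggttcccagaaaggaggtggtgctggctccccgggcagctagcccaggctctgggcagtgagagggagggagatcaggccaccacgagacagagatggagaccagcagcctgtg
Slco1a4: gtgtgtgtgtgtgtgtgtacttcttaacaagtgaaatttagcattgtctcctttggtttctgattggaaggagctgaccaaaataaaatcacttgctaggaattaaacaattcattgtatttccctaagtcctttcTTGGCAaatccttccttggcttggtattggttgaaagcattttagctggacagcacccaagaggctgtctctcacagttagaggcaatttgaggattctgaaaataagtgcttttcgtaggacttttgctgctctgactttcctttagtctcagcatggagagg
Ly6c1: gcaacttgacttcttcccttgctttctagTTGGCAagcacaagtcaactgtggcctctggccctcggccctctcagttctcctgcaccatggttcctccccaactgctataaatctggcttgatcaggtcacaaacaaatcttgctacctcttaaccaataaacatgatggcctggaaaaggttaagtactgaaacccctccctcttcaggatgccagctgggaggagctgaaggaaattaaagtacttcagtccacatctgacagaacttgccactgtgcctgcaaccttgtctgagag
Capitals mark TTGGCA, the half-site of nuclear factor I, which begins 114 bases before the start of Slco1a4 and 221 bases before that of Ly6c1. The search also covered CGGAAG, the ETS core, and ATCAAAG, the TCF/LEF core, on both strands, and no matches of different motifs overlap in these windows. TTGGCA occurs in 14.1% of 32851 promoters of this length, CGGAAG in 16.9% and ATCAAAG in 3.73%. Neither Gpr37l1 nor Ntsr2 held any of these letters in the window, and a match describes letters only.

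Astrocyte identity genes stood highest among the 26 gene lists. All 36 astrocyte genes were tested, 0 were called, and 30 of 36 were higher at an unadjusted p under 0.05, beside 19.6% of all genes. Their median difference was 2.02, beside 0.58 for all genes. After quantile normalization 20 of 36 were higher at an unadjusted p under 0.05, beside 5.24% of all genes, with a median of 1.25 beside 0.00. The median was 2.05 without brainstem D replicate 2, and 1.17 when quantile normalization was added, when 565 of all genes (5.38%) were higher at an unadjusted p under 0.05. The 36-library limma fit called 20 of the 36 higher in D, beside 3.96% of all genes, and the fit without cortex D replicate 2 called 31, beside 16.4%.

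Ntsr2, an astrocyte receptor for neurotensin, had 105 and 42.3 FPKM in olfactory bulb D, 311 and 74.2 in cortex D, and 116 and 65.4 in brainstem D. Neg had 42.4 and 21.9 FPKM in olfactory bulb, 16 and 4.67 in cortex, and 10.8 and 0.282 in brainstem. Only olfactory bulb D replicate 2 and olfactory bulb Neg replicate 1 met, at 42.3 and 42.4 FPKM. The difference was 3.19 ± 0.69 (log2 ± SE, limma adjusted p = 0.0835), and 2.10 after quantile normalization. It depended on how transcripts were assigned to the gene by locus. With an overlap score of at least 0.8 required in place of 0.5, it was 1.19 (limma adjusted p = 0.428). With only the transcript of highest mean, it was 3.96 (limma adjusted p = 0.0571). Aqp4, the water channel of astrocyte endfeet, had 18.3 and 6.65 FPKM in olfactory bulb D, 47.6 and 18.9 in cortex D, and 41.6 and 23.4 in brainstem D. Neg had 6.16 and 10.1 FPKM in olfactory bulb, 5.46 and 2.10 in cortex, and 6.21 and 3.60 in brainstem, so the groups overlapped in olfactory bulb alone (1.91 ± 0.58, limma adjusted p = 0.131). Aldh1l1, the folate enzyme often used to mark astrocytes, was listed at 0 to 18.9 FPKM in D and 0 to 2.00 FPKM in Neg, with 0 in cortex D replicate 2. Ntsr2 and Aqp4 were thus above 0 in every D library, beside genes of other cell types given below. The cell type of D was not tested.

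Genes for ion gradients were among the astrocyte genes in which every D library exceeded every Neg library. There were 4 of 36 such genes, Slc4a4, Atp1b2 and Slc1a3 among them, beside 131 of all tested genes (1.21%) with that separation. Read within each region, D lay above Neg without overlap in 6 of 36 astrocyte genes and 7 of 66 endothelial genes, beside 377 of all genes (3.47%). Slc4a4, a sodium bicarbonate cotransporter, had 62.6 and 58.3 FPKM in olfactory bulb D, 95.8 and 54.8 in cortex D, and 62.2 and 61.7 in brainstem D. Neg had 30.8 and 27.8 FPKM in olfactory bulb, 16.2 and 7.78 in cortex, and 9.16 and 5.23 in brainstem. D varied little among its libraries while Neg was lowest in brainstem, and the difference was 2.20 ± 0.54 (log2 ± SE, limma adjusted p = 0.0835). Atp1b2, the glial beta subunit of the sodium pump, ranged from 164 to 814 FPKM in D (median 232) and from 20.7 to 79.7 FPKM in Neg (median 71.1), a difference of 2.39 ± 0.53.

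**Figure D2:**
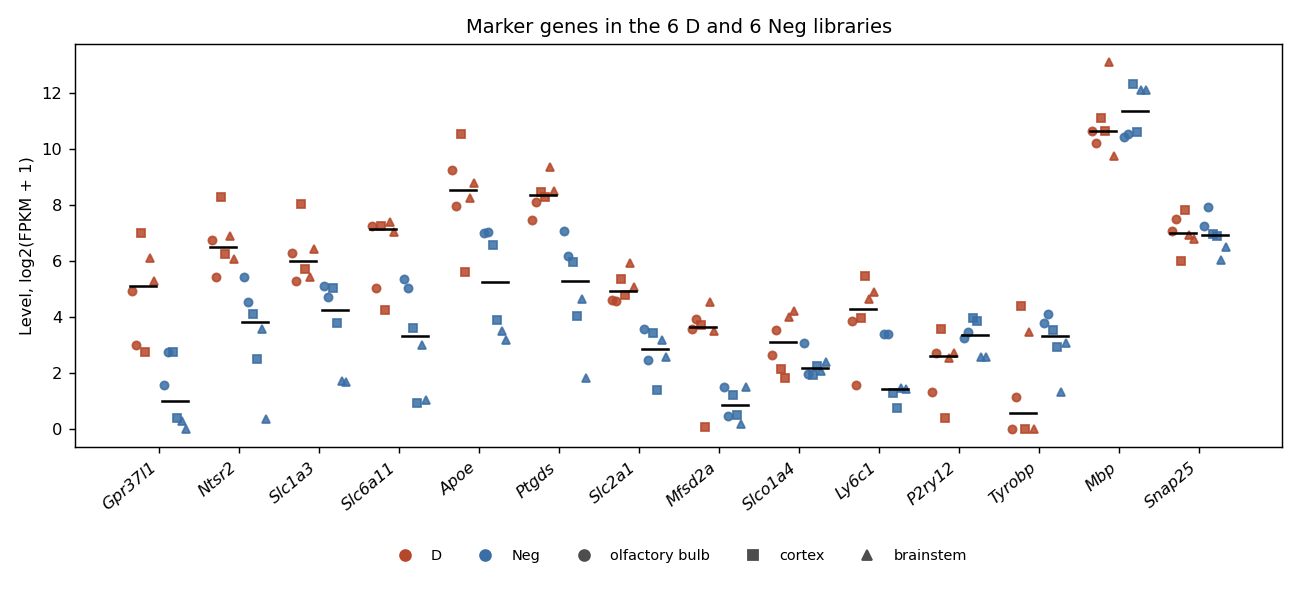
Values of 14 marker genes in each library as log2(FPKM + 1), with D on the left and Neg on the right for each gene; symbols give the region and bars the median of 6 libraries. The astrocyte genes Gpr37l1, Ntsr2, Slc1a3, Slc6a11 and Apoe have their D medians above their Neg medians, P2ry12 and Tyrobp below, and the neuronal gene Snap25 overlaps.

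Transporters that remove transmitters from the synaptic space were read next. Of 12 uptake genes, 8 were higher at an unadjusted p under 0.05 (beside 19.6% of all genes) and 0 lower as deposited. After quantile normalization 5 were higher (beside 5.24%) and 1 lower (beside 5.53%). Their medians were 1.82 and 0.74. Slc1a3, the glutamate transporter GLAST, had 76.8 and 37.4 FPKM in olfactory bulb D, 260 and 51.1 in cortex D, and 41.9 and 84.3 in brainstem D. Neg had 33.1 and 25.3 FPKM in olfactory bulb, 31.9 and 12.9 in cortex, and 2.29 and 2.18 in brainstem, below all D libraries (2.51 ± 0.62, limma adjusted p = 0.0835). Slc6a11, the glial GABA transporter, had 150 and 31.3 FPKM in olfactory bulb D, 150 and 17.8 in cortex D, and 168 and 130 in brainstem D, against 40.3 and 32.0 in olfactory bulb Neg, 11.2 and 0.914 in cortex Neg, and 7.04 and 1.03 in brainstem Neg. Its groups met in olfactory bulb, where D replicate 2 lay under both Neg libraries. Slc1a2, the glutamate transporter GLT-1, overlapped between groups, with 71.0 to 1929 FPKM in D and 18.7 to 340 FPKM in Neg (1.37 ± 0.54, limma adjusted p = 0.196). The 36-library limma fit called 6 of the 12 higher in D (beside 3.96% of all genes), among them Slc1a3, Slc6a11, Slc6a9, Abat and Slc38a3, and not Slc1a2 (adjusted p = 0.0867).

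Gap junction and endfoot genes gave 8 of 12 higher at an unadjusted p under 0.05, beside 19.6% of all genes, with a median of 1.76 as deposited and 0.80 after quantile normalization. Gja1, which encodes connexin 43, had 39.5 and 31.0 FPKM in olfactory bulb D, 119 and 9.08 in cortex D, and 72.4 and 74.5 in brainstem D. Neg had 18.3 and 24.1 FPKM in olfactory bulb, 17.6 and 5.73 in cortex, and 1.21 and 0.593 in brainstem. Its Neg values spread over the regions more than its D values, and the difference was 2.55 ± 0.72 (log2 ± SE, limma adjusted p = 0.111; called at adjusted p = 0.00518 in the 36-library fit). Kcnj10, the inward rectifier that buffers potassium, had 34.8 to 137 FPKM in D and 8.97 to 36.4 FPKM in Neg (1.69 ± 0.57, limma adjusted p = 0.153).

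Lipid genes of astrocytes came next. Of 12 lipoprotein and lipid export genes 11 were tested, and 8 were higher at an unadjusted p under 0.05 (beside 19.6% of all genes), with a median of 1.5 as deposited and 0.84 after quantile normalization. Apoe, the main lipoprotein of brain, had 609 and 245 FPKM in olfactory bulb D, 1473 and 47.6 in cortex D, and 304 and 436 in brainstem D. Neg had 125 and 129 FPKM in olfactory bulb, 94.3 and 13.8 in cortex, and 10.3 and 8.01 in brainstem. Within the olfactory bulb and the brainstem each D library was above both Neg libraries, while cortex D replicate 2 lay between the cortex Neg libraries (3.20 ± 0.72, limma adjusted p = 0.0835). Apoe is also made by activated microglia, whose listed genes are described below. Abca1, a cholesterol exporter, had 3.03 to 7.05 FPKM in D and 0.193 to 3.51 FPKM in Neg (1.33 ± 0.48, limma adjusted p = 0.172). Of 18 cholesterol synthesis genes 16 were tested, 10 were higher at an unadjusted p under 0.05 as deposited (beside 19.6% of all genes) and 2 after quantile normalization (beside 5.24%), with medians of 1.20 and 0.53. Lss, lanosterol synthase, was the member with every D library above every Neg library, beside 1.21% of all tested genes. It had 1.73 to 7.31 FPKM in D and 0 to 1.58 FPKM in Neg.

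Signalling groups of astrocytes were also followed. Of 12 Notch and BMP target genes 11 were tested, 8 were higher at an unadjusted p under 0.05 (beside 19.6% of all genes), and the median was 1.51 as deposited and 0.65 after quantile normalization. Hes5, a Notch target, was listed at 5.45 and 2.13 FPKM in olfactory bulb D, 3.55 and 0 in cortex D, and 4.19 and 5.28 in brainstem D. In Neg it was listed at 0.117 and 3.62 FPKM in olfactory bulb and at 0 in the cortex and brainstem libraries. Its 0 in cortex D replicate 2 matched the Neg libraries of that region. Among genes for secreted factors that act on synapses, 15 of 18 were tested and 8 were higher at an unadjusted p under 0.05 (beside 19.6% of all genes), with medians of 1.22 and 0.28. Sparcl1, which encodes hevin, had 191 to 1093 FPKM in D and 36 to 137 FPKM in Neg, with no overlap (2.08 ± 0.51, limma adjusted p = 0.0835). Sparc, which encodes a related matrix protein, overlapped between groups and gave 0.94 ± 0.60 as deposited and -0.10 after quantile normalization.

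**Figure D3:**
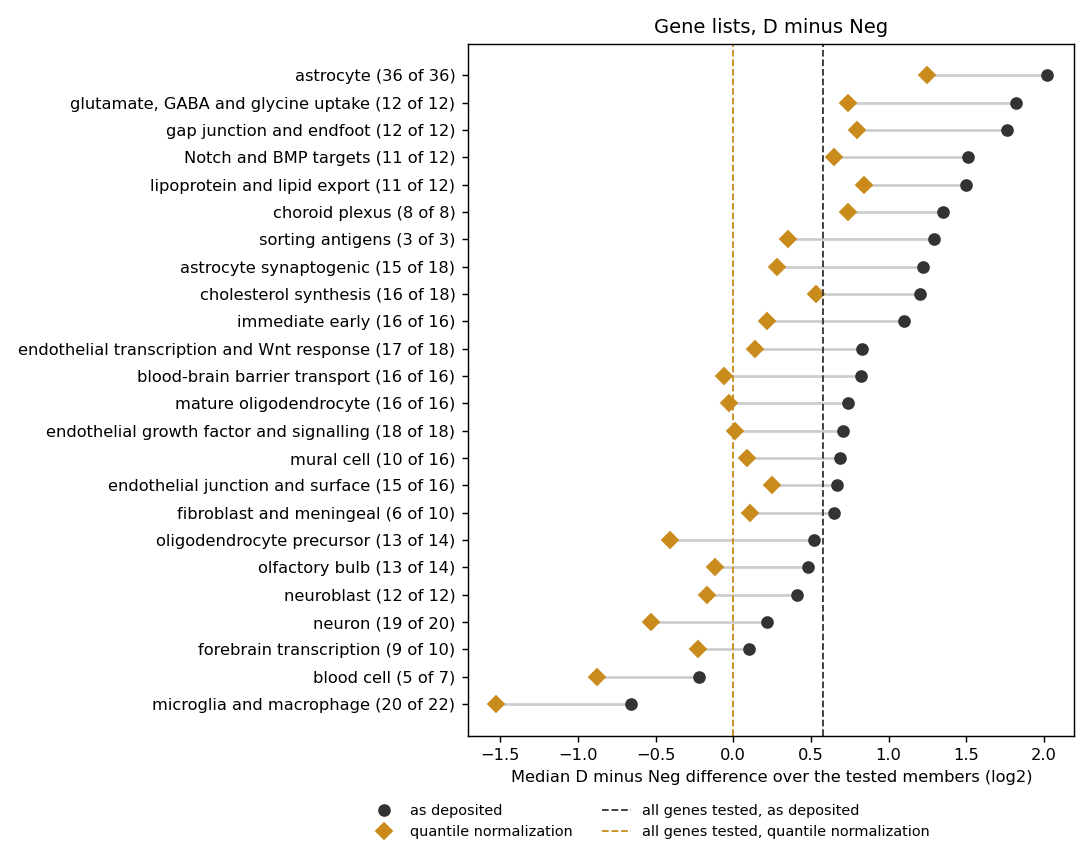
Median D minus Neg difference (log2) over the tested members of each gene list, with the tested and total numbers in parentheses; circles are values as deposited and diamonds values after quantile normalization. The astrocyte list has the highest medians, 2.02 and 1.25, and the microglia and macrophage list the lowest, -0.66 and -1.53, beside 0.58 and 0.00 for all genes tested (dashed lines).

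Endothelial genes had a median near that of all genes, with single members well above it. Of 68 genes in 4 endothelial lists 66 were tested. As deposited 23 were higher at an unadjusted p under 0.05, beside 19.6% of all genes, and after quantile normalization 8 were higher, beside 5.24%, and 1 lower, beside 5.53%. The 36-library limma fit called 8 higher, beside 3.96% of all genes, and the fit without cortex D replicate 2 called 20, beside 16.4%. Their medians were 0.79 and 0.14, beside 0.58 and 0.00 for all genes, and their mean log2(FPKM + 1) was 0.86 to 2.71 in D libraries and 0.72 to 1.76 in Neg libraries. Cdh5, which encodes the endothelial cadherin, had 5.52 and 2.80 FPKM in olfactory bulb D, 3.84 and 3.29 in cortex D, and 9.03 and 3.89 in brainstem D. Neg had 1.62 and 0.710 FPKM in olfactory bulb, 1.05 and 0.829 in cortex, and 0.466 and 0 in brainstem. Every D library exceeded every Neg library (1.67 ± 0.48, limma adjusted p = 0.117; 0.0235 in the 36-library fit). Pecam1, another defining endothelial gene, overlapped, with 0.0791 to 5.16 FPKM in D and 0 to 1.90 FPKM in Neg. Cldn5, the claudin of the blood-brain barrier, was listed at 0 in cortex D replicate 2 and at 2.20 to 6.52 FPKM in the other D libraries, against 0 to 3.20 FPKM in Neg (1.41 ± 0.54, limma adjusted p = 0.188).

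Barrier transporters split among themselves. The 16 transport genes had a median of 0.82 as deposited and -0.06 after quantile normalization, a change of sign, with 5 higher (beside 19.6% of all genes) and 0 lower at an unadjusted p under 0.05 as deposited. Slc2a1, the glucose transporter GLUT1 (chromosome 4, 119108711 to 119137983, plus strand, protein coding), had 23.3 and 22.5 FPKM in olfactory bulb D, 39.8 and 26.7 in cortex D, and 60.2 and 32.5 in brainstem D. Neg had 10.8 and 4.53 FPKM in olfactory bulb, 9.64 and 1.63 in cortex, and 7.99 and 4.94 in brainstem. All D libraries exceeded all Neg libraries, and the difference was 2.29 ± 0.56 (log2 ± SE, limma adjusted p = 0.0835) and 1.26 after quantile normalization. Mfsd2a, the barrier transporter for lysophosphatidylcholine with docosahexaenoic acid, had 11 and 14.1 FPKM in olfactory bulb D, 12.1 and 0.0615 in cortex D, and 22.3 and 10.4 in brainstem D. Neg had 0.130 to 1.86 FPKM, so that 5 D libraries lay above that range and cortex D replicate 2 below it (2.32 ± 0.61, limma adjusted p = 0.0931). Both genes are also transcribed by astrocytes. Abcb1a, the P-glycoprotein gene, had 0.868 to 9.86 FPKM in D and 0.532 to 5.19 FPKM in Neg, with a difference of 0.81 as deposited and -0.06 after quantile normalization. The 36-library limma fit called Slc2a1, Mfsd2a and Slc6a6 higher in D, 3 of 16, beside 3.96% of all genes, and not Slco1a4.

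Growth factor receptors and vascular regulators made up the remaining endothelial lists. Of 18 endothelial growth factor and signalling genes 4 were higher at an unadjusted p under 0.05 as deposited (beside 19.6% of all genes) and 0 after quantile normalization, with medians of 0.71 and 0.01, and the 36-library fit called 0. Flt1, a receptor for vascular endothelial growth factor, had 1.57 to 15.1 FPKM in D and 0.157 to 8.50 FPKM in Neg, with a difference of 0.71 as deposited and -0.28 after quantile normalization. Of 18 endothelial transcription and Wnt response genes 17 were tested, and 7 were higher at an unadjusted p under 0.05 as deposited (beside 19.6%). After quantile normalization 4 were higher (beside 5.24% of all genes) and 1 was lower (beside 5.53%). The 36-library fit called 3, beside 3.96% of all genes, and the medians were 0.83 and 0.14. Lef1, a transcription factor of Wnt signalling, had 0.888 to 12.6 FPKM in D and 0 to 4.58 FPKM in Neg. Vwf, the von Willebrand factor gene, reached 26.9 FPKM in brainstem D replicate 1 and was at 0 to 2.40 FPKM in the other D libraries and 0 to 1.66 FPKM in Neg. Mural cell genes, which mark pericytes and vascular smooth muscle, were mostly too low to test: 10 of 16 entered, with medians of 0.69 and 0.09. Pdgfrb, the receptor that marks pericytes, was listed at 0 in 3 D libraries and all 6 Neg libraries, and reached 5.54 FPKM in brainstem D replicate 1.

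Microglial genes had the lowest median of the 26 lists. Of 22 microglia and macrophage genes 20 were tested, 5 were lower and 0 higher at an unadjusted p under 0.05 as deposited, and 14 were lower after quantile normalization, beside 0.267% and 5.53% of all genes. The medians were -0.66 and -1.53, with 3 of 20 differences above 0, and -0.55 and -1.34 without brainstem D replicate 2. P2ry12, the purinergic receptor of resting microglia, had 1.48 and 5.63 FPKM in olfactory bulb D, 10.9 and 0.319 in cortex D, and 4.72 and 5.52 in brainstem D. Neg had 8.44 and 9.90 FPKM in olfactory bulb, 14.5 and 13.5 in cortex, and 4.92 and 4.94 in brainstem. D was below Neg in olfactory bulb and cortex, and the groups overlapped in brainstem (-1.07 ± 0.59, limma adjusted p = 0.296; -1.97 after quantile normalization, adjusted p = 0.154). Csf1r, the receptor that microglia need to survive, overlapped widely, with 1.55 to 25.2 FPKM in D and 0.826 to 20.1 FPKM in Neg. Neither the 36-library fit nor the 12-library fit called a microglial gene.

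Neurons and oligodendrocytes left RNA in both groups. Of 20 neuronal genes 19 were tested, and 0 differed at an unadjusted p under 0.05 as deposited. After quantile normalization 6 were lower, beside 5.53% of all genes. Their medians were 0.22 and -0.53, a change of sign with the scale. Snap25, a presynaptic protein gene, had 132 and 180 FPKM in olfactory bulb D, 63.4 and 223 in cortex D, and 119 and 109 in brainstem D, against 150 and 241 in olfactory bulb Neg, 122 and 116 in cortex Neg, and 64.4 and 89.9 in brainstem Neg. The groups overlapped in olfactory bulb and cortex, and in brainstem both D libraries were above both Neg libraries. Of 16 mature oligodendrocyte genes 3 were higher at an unadjusted p under 0.05 as deposited, near the 19.6% of all genes. After quantile normalization 2 were higher, beside 5.24% of all genes, and 3 lower, beside 5.53%. Their medians were 0.74 and -0.03. Mbp, the myelin basic protein gene, had 1563 and 1163 FPKM in olfactory bulb D, 2178 and 1595 in cortex D, and 8646 and 842 in brainstem D, against 1379 and 1461 in olfactory bulb Neg, 5032 and 1538 in cortex Neg, and 4344 and 4339 in brainstem Neg. It exceeded every astrocyte gene named here in every D and Neg library. Oligodendrocyte precursor genes had medians of 0.52 and -0.41 over 13 of 14, neuroblast genes 0.41 and -0.17 over 12 of 12, and blood cell genes -0.22 and -0.88 over 5 of 7.

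Choroid plexus genes stood above the all-gene median, with a wide spread among D libraries. Their mean log2(FPKM + 1) was 4.90 in cortex D replicate 1 and 4.10 in brainstem D replicate 1. It was 0.59 to 1.89 in the other D libraries and 0.17 to 2.45 in Neg. All 8 were tested, 4 were higher at an unadjusted p under 0.05 (beside 19.6% of all genes), and the medians were 1.35 and 0.74. Ttr, the transthyretin gene of choroid plexus, had 0.792 and 195 FPKM in olfactory bulb D, 3559 and 36.3 in cortex D, and 2245 and 2.10 in brainstem D, against 0.306 and 0.288 in olfactory bulb Neg, 364 and 74.3 in cortex Neg, and 7.48 and 16.7 in brainstem Neg. It differed between the 2 libraries of each D group more than between the populations (2.59 ± 1.25, limma adjusted p = 0.250). Fibroblast and meningeal genes (6 of 10 tested) had medians of 0.65 and 0.11, ependymal genes (3 of 8 tested) 0.56 and 0.08, forebrain transcription genes (9 of 10 tested) 0.10 and -0.23, olfactory bulb genes (13 of 14 tested) 0.48 and -0.12, and 1 of 12 hindbrain transcription genes was tested. The part of these other cell types in the D minus Neg differences was not tested.

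The genes with the smallest p-values included several outside the lists. Ptgds, prostaglandin D synthase, had 175 and 274 FPKM in olfactory bulb D, 353 and 305 in cortex D, and 643 and 358 in brainstem D. Neg had 132 and 70.4 FPKM in olfactory bulb, 61.0 and 15.2 in cortex, and 23.8 and 2.56 in brainstem. Every D library exceeded every Neg library (3.41 ± 0.66, limma adjusted p = 0.0567; 2.30 after quantile normalization). Ifitm2, an interferon-induced membrane protein gene, had 26.2 and 46.7 FPKM in olfactory bulb D, 36 and 7.14 in cortex D, and 25.8 and 19.9 in brainstem D. Neg had 3.96 and 2.22 FPKM in olfactory bulb, 1.72 and 0.819 in cortex, and 4.65 and 0 in brainstem, again below all D libraries (3.15 ± 0.58, limma adjusted p = 0.0567). Ece1, the endothelin-converting enzyme gene, had 11.4 to 30.5 FPKM in D and 0.0769 to 9.24 FPKM in Neg (3.07 ± 0.59, limma adjusted p = 0.0567). Ptn, the pleiotrophin gene, had 49.4 to 765 FPKM in D and 6.39 to 111 FPKM in Neg, overlapping through cortex D replicate 2 (3.28 ± 0.61, limma adjusted p = 0.0567). Fads2, a fatty acid desaturase gene, had 37.1 to 151 FPKM in D and 0.0847 to 29.9 FPKM in Neg, with no overlap (3.01 ± 0.63, limma adjusted p = 0.0812). In all, 121 genes had an adjusted p under 0.1, all 121 higher in D, and after quantile normalization 3 genes did.

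The published study sorted its lettered populations by the surface antigens CD51, CD63 and CD71, read here as transcripts. These antigens are named from knowledge of that study and not from the labels, and any other gate of the sort is not described here. Itgav, which encodes CD51, had 7.10 and 7.32 FPKM in olfactory bulb D, 17.6 and 10.1 in cortex D, and 8.47 and 10.3 in brainstem D. Neg had 5.36 and 6.89 FPKM in olfactory bulb, 4.23 and 1.81 in cortex, and 0.607 and 1.34 in brainstem. All D libraries exceeded all Neg libraries (1.51 ± 0.54, limma adjusted p = 0.166; 0.0176 in the 36-library fit), and the difference was 0.47 after quantile normalization. Cd63 was listed at 0 in cortex D replicate 2 and at 5.36 to 23.3 FPKM in the other D libraries, against 0.196 to 4.03 FPKM in Neg. Tfrc, which encodes CD71, overlapped, with 0.401 to 9.84 FPKM in D and 0.810 to 7.49 FPKM in Neg (0.18 ± 0.58 as deposited, -0.68 after quantile normalization). The sort used the surface antigens and not transcripts, and the labels do not say which antigens define D or what Neg means. These transcript levels are therefore a description and not a finding.

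Immediate early genes, which respond within minutes to stimulation and to tissue dissociation, are given as a measure of the samples' state. Of 16 genes 7 were higher at an unadjusted p under 0.05 as deposited (beside 19.6% of all genes) and 2 after quantile normalization (beside 5.24%), with medians of 1.10 and 0.22. Jund, Ier3 and Dusp1, 3 of the 16, had every D library above every Neg library, beside 131 of all tested genes (1.21%). Jund had 3.41 to 8.65 FPKM in D and 0.158 to 2.62 FPKM in Neg. Ier3 had 1.64 to 10.9 FPKM in D and 0 to 1.07 FPKM in Neg. Dusp1 had 16.6 to 100 FPKM in D and 2.16 to 16.6 FPKM in Neg. The nearest D and Neg values of Dusp1 round to the same number. Their part in the other differences was not tested.

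The comparison was next read within each region. The median of all genes was 0.27 higher in D in olfactory bulb, 0.22 in cortex and 1.22 in brainstem, where Neg had its fewest detected genes. Astrocyte genes had medians of 0.88 in olfactory bulb, 2.02 in cortex and 2.99 in brainstem as deposited, and 0.61, 1.36 and 1.13 after quantile normalization. Uptake genes had 0.46, 1.53 and 2.92 in the same order, and endothelial genes 0.53, 0.47 and 1.36. Microglial genes had -1.99, -0.76 and 0.33 as deposited and -2.37, -1.0 and -0.91 after quantile normalization, so the brainstem median was negative only after normalization. Neuronal genes had -0.55, -0.52 and 1.42 as deposited. A limma test of whether the D minus Neg difference depended on region called 0 of 10851 genes (0%), with a smallest adjusted p of 0.711 and 701 genes (6.46%) at an unadjusted p under 0.05. The order of the regions is therefore a description of 2 libraries per group, and for brainstem it includes the D library with olfactory bulb genes.

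**Figure D4:**
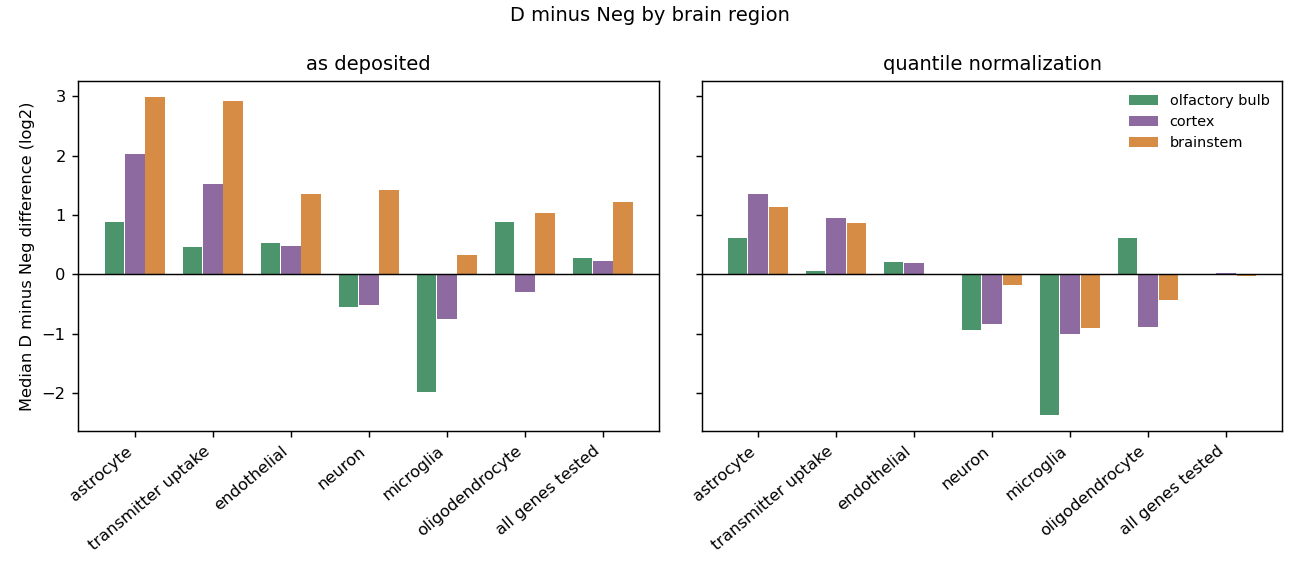
Median D minus Neg difference (log2) over each gene list within olfactory bulb, cortex and brainstem (2 D and 2 Neg libraries each), as deposited on the left and after quantile normalization on the right. As deposited, the brainstem medians are 2.99 (astrocyte), 2.92 (uptake), 1.36 (endothelial), 1.42 (neuron), 0.33 (microglial) and 1.03 (oligodendrocyte), beside 1.22 for all genes tested. After normalization the astrocyte medians are 0.61, 1.36 and 1.13 and the microglial medians -2.37, -1.0 and -0.91.

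Npy showed what the library labelled brainstem D replicate 2 contributes. The neuropeptide Y gene had 235 and 187 FPKM in olfactory bulb D, 4.25 and 0 in cortex D, and 22 and 440 in brainstem D, against 60.3 and 52.5 in olfactory bulb Neg, 0.673 and 0 in cortex Neg, and 0 and 0 in brainstem Neg. That library exceeded both olfactory bulb D libraries, while the other brainstem D library was far below them. The difference was 3.12 ± 0.83 (log2 ± SE, limma adjusted p = 0.0931) with all libraries and 2.14 (adjusted p = 0.200) without that library.

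A last comparison placed D among the other sorted populations, A, B, C and E, each with 2 libraries per region. Against their mean, limma called 4 genes (0.0295% of 13580) higher and 10 (0.0736%) lower in D, and 1197 genes (8.81%) had an unadjusted p under 0.05. After quantile normalization the counts were 8 (0.0589%) and 7 (0.0515%), and 9 genes were called in the same direction by both. Of the 10 genes lower in D as deposited, 3 belong to the microglia and macrophage list (Tyrobp, Csf1r and Trem2). They are 3 of its 22 tested genes, beside 0.0736% of all genes. The mean of A, B, C and E includes B, where the level of that list had its highest median over libraries, 5.36. In E that median was 1.21, below that of D, so D was not the lowest population for this list. The named genes were Tyrobp, an adaptor of myeloid receptors (-2.89 ± 0.49, limma adjusted p = 0.00963), Cd37, a tetraspanin of leukocytes, at 0 to 0.303 FPKM in D and 0 to 34.9 FPKM in the other populations (-1.92 ± 0.37, limma adjusted p = 0.0293), Csf1r (-1.87, adjusted p = 0.0461), the major histocompatibility gene H2-Aa (-1.85, adjusted p = 0.0442), the lipid receptor gene Trem2 (-1.77, adjusted p = 0.00963), and the Fc receptor gene Fcgr3 (-1.77, adjusted p = 0.0122). H2-Aa and Cd37 had adjusted p-values of 0.184 and 0.0819 after quantile normalization. Tmsb15b2, a thymosin beta gene, rose, at 0 to 34.0 FPKM in D and 0 to 1.58 FPKM in the others, through cortex D replicate 2 at 34.0 FPKM (1.47 ± 0.30, limma adjusted p = 0.0442; 0.0995 after quantile normalization). Of these genes, Trem2 kept an adjusted p of 0.00431 to 0.0303 with each D library left out in turn. The others lost the call without at least 1 D library: without olfactory bulb D replicate 1 the adjusted p was 0.0715 for Tyrobp, 0.0715 for Cd37, 0.173 for Csf1r, 0.074 for Fcgr3 and 0.2 for Tmsb15b2; without olfactory bulb D replicate 2 it was 0.0872 for Cd37, 0.0872 for Csf1r and 0.218 for H2-Aa; without cortex D replicate 2 it was 0.153 for Csf1r, 0.0766 for H2-Aa and 0.154 for Tmsb15b2, whose difference was then 0.94. Without brainstem D replicate 1 it was 0.0855 for Tmsb15b2, and without brainstem D replicate 2 it was 0.0731 for Tyrobp, 0.0717 for Cd37, 0.158 for Csf1r and 0.107 for H2-Aa. The other genes called higher, Mpp3, Mfap4 and Nlrc3, fell outside the naming rule, with cortex differences of -0.21, -0.24 and -0.04. Mpp3 had the smallest p of all called genes (1.45 ± 0.22, limma adjusted p = 0.00311; 0.0013 after quantile normalization). Its difference was 1.15 to 1.75 with each D library left out in turn. Mfap4 had an adjusted p of 0.0268, and 0.00228 after quantile normalization (limma). The astrocyte list had 0 of 36 called and a median of -0.48 in this comparison, with 35 of 36 differences below 0. The median of all genes was -0.09.

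The level of each list over the populations showed where D lay. The mean log2(FPKM + 1) of the 36 astrocyte genes had medians over libraries of 4.85 in D, 5.20 in A, 5.85 in B, 6.41 in C, 3.48 in E and 2.76 in Neg, with D spread from 3.28 to 6.65 and Neg from 1.5 to 3.50. For the microglia and macrophage list the medians were 1.5 in D, 2.60 in A, 5.36 in B, 3.72 in C, 1.21 in E and 2.50 in Neg. For the endothelial genes they were 2.07 in D, 1.74 in A, 2.43 in B, 1.95 in C, 0.94 in E and 1.11 in Neg. The range of D overlapped that of every other population for the astrocyte and endothelial lists, and that of every population but B (4.92 to 5.75) for the microglia and macrophage list, at 0.95 to 2.96 in D; these list levels were not tested.

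**Figure D5:**
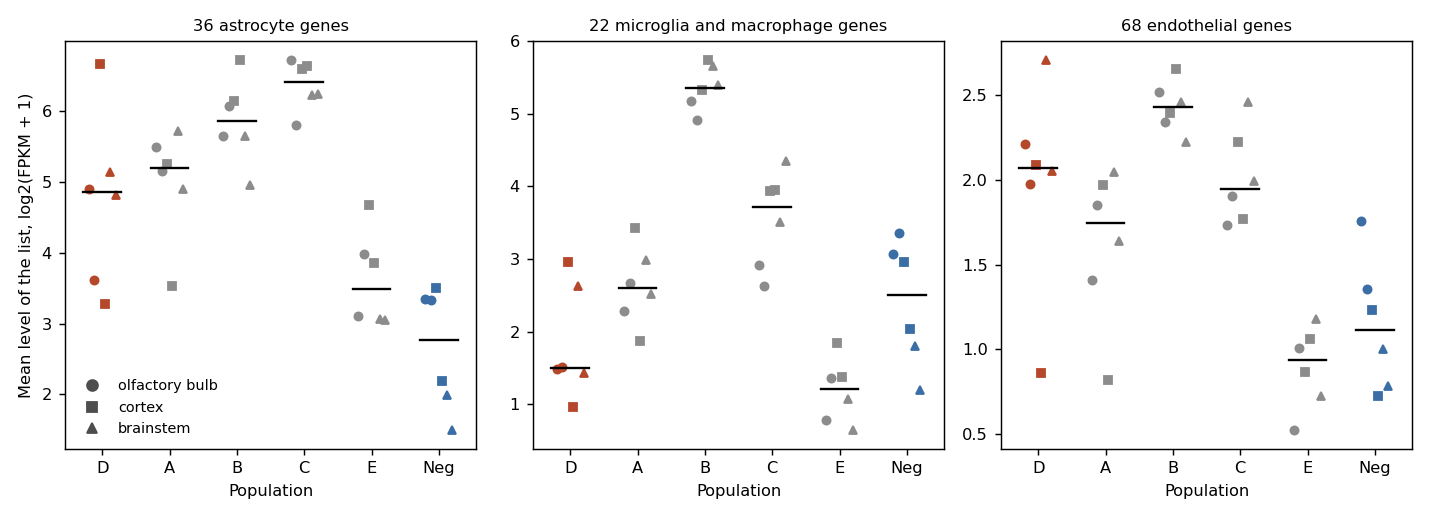
Mean log2(FPKM + 1) over 36 astrocyte, 22 microglia and macrophage and 68 endothelial genes in each of the 36 libraries, by population, with D first and Neg last; symbols give the region and bars the median of 6 libraries. D has medians of 4.85, 1.5 and 2.07, against 2.76, 2.50 and 1.11 in Neg, and cortex D replicate 2 is the lowest D library in all 3 panels.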

How the data were processed

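The deposited files are Cufflinks tables of FPKM per transcript with 95% limits, per the file headers; the submitters' processing notes name bcl2fastq 1.8.3, TopHat, Cufflinks and mm10, with versions of the last 2 tools not given in the sources used here. Coverage per transcript, a signal column of the deposited tables per the file headers, served only as relative depth. Libraries were made with a kit that does not mark strand. Of 63241 transcripts, 52551 (83.1%) were assigned by locus to 25461 genes of GENCODE vM21, and FPKM were summed per gene. Genes at 1 FPKM or more in 2 of the 12 libraries were fitted on the log2(FPKM + 1) scale, region as a block, by limma 3.58.1 (R 4.3.3), with Benjamini-Hochberg adjustment and a threshold of 0.05; fold changes on this scale understate changes of low genes. The fit was tested on simulated data. No counts were given, so no count test was run. Replicates were numbered in accession order.

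Some genes are not reported here. Members and gene lists were chosen with earlier results of these data known. Named genes are Slco1a4, Ly6c1 and Gpr37l1, called genes (up to 12 per direction in D minus Neg and 6 in the other comparisons, at 5 FPKM or more, with the same sign in all 3 regions) and up to 3 defining members of each list; genes named for a small p or for groups that do not overlap, further list members, Xist and Uty were chosen after their values were seen. Promoters are from RefSeq (GRCm38.p6). Alternatives covered pseudocount, filter, scaling, weights, number series, all 36 libraries and leaving out single libraries.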

Additional observations from a re-analysis of the deposited data

Results flagged for a closer look

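Of 86 checks for a library far from the other 5 of its population, 7 met the limit, and chance flags about 1 in 20 groups. Cortex D replicate 2 was the lowest D library 4 times. It had 3001 detected genes, against 7706 to 8693 in the other D libraries. Its mean log2(FPKM + 1) was 1.13 over the blood-brain barrier transport genes, against 2.40 to 3.03 in the other D libraries. That mean was 0.72 over the endothelial transcription and Wnt response genes, against 1.86 to 2.36, and 0.61 over the Notch and BMP target genes, against 2.26 to 2.84.

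Over the mature oligodendrocyte genes, brainstem D replicate 1 stood highest at 5.97, against 3.87 to 4.63 in the other D libraries. Cortex Neg replicate 1 stood highest among Neg libraries over the same genes at 4.59, against 3.63 to 3.77. The fatty acid desaturase gene Fads2 stood highest in cortex D replicate 1 at 7.25 (log2(FPKM + 1)), against 5.25 to 5.82 in the other D libraries.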

How the results depend on the processing

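No paired analysis was possible because the labels carry no replicate numbers. As fitted, limma called 0 genes in D minus Neg, and also 0 without all libraries under 5000 genes. It called 9 with 1 FPKM required in 6 libraries, 540 with all 36 libraries, 7 on 6 group means, 1103 (1097 higher) with a number series term over 36 libraries, 257 with array quality weights, and 69 (41 higher) with that term after quantile normalization, an alternative chosen after seeing the data. Leaving out 1 library gave 0 to 1776: 8 without olfactory bulb Neg replicate 1, 25 without olfactory bulb D replicate 2 and 1776 without cortex D replicate 2. Dependence on region gave 0 to 1 genes. D minus the mean of A, B, C and E called 14 genes, 5 with a pseudocount of 0.1, 8 without the filter, and 7 to 208 without 1 D library (7 without olfactory bulb D replicate 1, 208 and 35 without cortex D replicates 1 and 2, 92 without brainstem D replicate 1). The difference in detected genes was 1728 to 3148, with 3148 without cortex D replicate 2.

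Slco1a4 changed sign to -0.25 after rescaling each library to one sum and to -0.13 after quantile normalization. In combination with quantile normalization it was -0.19 at a pseudocount of 0.1, -0.02 without libraries under 5000 genes and -0.11 with the number series term, alternatives chosen after seeing the data, and -0.12 without brainstem D replicate 2. Ly6c1 gave -0.13 after quantile normalization without libraries under 5000 genes. Gpr37l1 stayed positive in the 29 other settings, from 2.02 to 5.22, and was called in 7. The causes were not tested. Depth per library is known only as relative coverage, and arms of 2 libraries per region limit what can be told apart.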

Other observations

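Clock genes were read as a group after Nr1d1 appeared among the genes with the smallest p-values, so they were chosen after their values were seen. Nr1d1, which encodes the repressor REV-ERB alpha, had 17.0 and 16.1 FPKM in olfactory bulb D, 59.1 and 42.4 in cortex D, and 19.1 and 5.90 in brainstem D. Neg had 5.82 and 6.74 FPKM in olfactory bulb, 1.87 and 0 in cortex, and 0.206 and 0.173 in brainstem. Each D library exceeded both Neg libraries of its region (3.16 ± 0.61, limma adjusted p = 0.0567). Of 15 clock genes, 6 were higher at an unadjusted p under 0.05 as deposited (beside 19.6% of all genes), with medians of 0.77 as deposited and 0.10 after quantile normalization, beside 0.58 and 0.00 for all genes. Per3, a period gene, overlapped, with 0 to 5.28 FPKM in D and 0 to 5.09 FPKM in Neg. The labels give no time of day.

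Gm26917, a gene model that reads from ribosomal RNA can enter, was at 503 to 19061 FPKM in D and at 95 to 2721 FPKM in Neg, and its part in the scale of the libraries was not tested.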
